A study of Mus musculus with 6 samples.

Results

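The cytosolic ribosomal protein genes of the mouse were followed in pro-B cells sorted from bone marrow. Pro-B cells are early B lineage cells that rearrange the immunoglobulin heavy chain gene. Members were every gene symbol of the form Rpl or Rps plus a number (with the suffixes a, x or a1), Rpsa, and the stalk genes Rplp0, Rplp1 and Rplp2. This gave 77 of the 54752 gene identifiers in the tables, 46 of the large and 31 of the small ribosomal subunit, and all 77 passed the filter on low values. Skiv2l-deleted mice carried Skiv2lfl/fl alleles together with Cd79a-Cre, and control mice carried Skiv2lfl/fl alleles with no Cre named. There were 3 mice in each group, with 1 library per mouse. All 6 mice were adult C57BL/6 and shared the floxed alleles, so any effect of the Cre and of the deletion cannot be told apart. Cd79a is a gene of the B lineage, so the driver acts in that lineage, and the floxed exons are not stated in the labels.

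A ribosome is built from a large subunit, which joins amino acids and threads the new chain through an exit tunnel, and a small subunit, which holds and reads the messenger RNA. Each holds 1 copy of nearly every one of its proteins, so cells make these proteins in matched amounts, and their messenger RNAs are among the most abundant of a dividing cell. Most of these messages begin with a C followed by a run of pyrimidines, the terminal oligopyrimidine or TOP tract, through which mTOR signalling and the protein LARP1 set their translation and stability. Skiv2l makes the helicase subunit of the cytosolic SKI complex. This complex binds ribosomes, pulls messenger RNA out of them and passes it to the RNA exosome for decay from the 3′ end. The comparison asks what the level of ribosomal protein messages was when this helicase was deleted.

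Expression was given by the deposited tables as FPKM, fragment numbers normalised for transcript length and library size, so that levels can be compared between genes. Libraries held 1.74 to 2.40 Gb of aligned bases, and 12975 to 13738 genes stood at 1 FPKM or above in each. Skiv2l itself was at 9.53, 16.1 and 10.9 FPKM in Skiv2l-deleted libraries and at 25.4, 20.2 and 46.3 FPKM in control libraries, with no overlap. Its log2 fold change was −1.21 ± 0.32 (SE), with a limma adjusted p of 0.063 and an exact two-sided permutation p of 0.1, the smallest that 3 against 3 allows. All 10 pro-B markers passed the filter, and 7 had a log2 fold change above 0. Of the 10, 6 had a limma adjusted p below 0.05, all higher in Skiv2l-deleted cells, against 4.97% of all genes. Of 7 plasma cell markers 5 were tested, and 1 of the 5 had a log2 fold change above 0. A limma adjusted p below 0.05 was reached by 3, all lower, against 8.84% of all genes in either direction. The 7 plasma cell markers summed to 127 to 152 FPKM in Skiv2l-deleted libraries and 422 to 619 FPKM in control libraries. Control 3 and Skiv2l-deleted 2 stood apart from the other 4 libraries on the second principal component, which carried 33.1% of the variance. Of the myeloid markers Mpo, Elane, Prtn3 and Ctsg were high in these 2 libraries. Ngp did not follow them, at 49.6, 29.7 and 0.156 FPKM in Skiv2l-deleted libraries and 0.221, 58.3 and 25.2 FPKM in control libraries, and S100a9 was higher in control 2 (217 FPKM) than in control 3 (177 FPKM). The 10 myeloid markers, none of them under 1 FPKM in all libraries, summed to 400, 2853 and 80.1 FPKM in Skiv2l-deleted 1, 2 and 3, and to 130, 494 and 1593 FPKM in control 1, 2 and 3. The 9 erythroid markers found summed to 8.44, 204 and 3.82 FPKM in Skiv2l-deleted libraries and to 7.56, 8.15 and 5.33 FPKM in control libraries, and 3 of the 9 were under 1 FPKM everywhere. The 10 T and NK cell markers summed to 32.4 to 56.2 FPKM in Skiv2l-deleted libraries and to 31.2 to 45.3 FPKM in control libraries. In cells sorted and read in bulk, fewer cells of a type and less RNA per cell cannot be told apart.

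Ribosomal protein messages made up a larger share of the transcriptome in Skiv2l-deleted pro-B cells. The 77 genes took 14.0%, 15.5% and 13.7% of all FPKM in the 3 Skiv2l-deleted libraries and 11.3%, 11.9% and 13.4% in the 3 control libraries. The means were 14.4% ± 0.992 and 12.2% ± 1.11 (SD, n = 3 each), and the groups did not overlap, although Skiv2l-deleted 3 and control 3 lay close together. The large subunit genes summed to 39734, 46854 and 39264 FPKM in Skiv2l-deleted libraries, against 32107, 34049 and 40773 FPKM in control libraries. The small subunit genes summed to 30359, 37537 and 29879 FPKM in Skiv2l-deleted libraries, against 23961, 25708 and 33279 FPKM in control libraries. In each subunit the sum of control 3 exceeded those of Skiv2l-deleted 1 and 3, so that the sums overlapped between the groups. The FPKM of all genes also summed to more in control 3 (551712) and Skiv2l-deleted 2 (544100) than in the other libraries (498125 to 506046). The log2 ratio of the group means of these sums was 0.24 for each subunit. Without Skiv2l-deleted 2 it was 0.15 for the large and 0.12 for the small subunit, and for the small subunit it was 0.14 without control 1 and 0.39 without control 3. The group means stood in a ratio of 1.18 for the large and 1.18 for the small subunit, Skiv2l-deleted over control. Set as shares, large subunit genes took 7.91%, 8.61% and 7.76% in Skiv2l-deleted libraries and 6.45%, 6.80% and 7.39% in control libraries, without overlap. Small subunit genes took 6.05%, 6.90% and 5.90% in Skiv2l-deleted libraries and 4.81%, 5.14% and 6.03% in control libraries, and here control 3 lay above Skiv2l-deleted 3. Sums over members were given no test.

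The balance between the subunits differed between the genotypes by less than its spread between mice. Summed FPKM of large over small subunit genes was 1.31, 1.25 and 1.31 in Skiv2l-deleted libraries and 1.34, 1.32 and 1.23 in control libraries, with means of 1.29 ± 0.0366 and 1.30 ± 0.0623 (SD, n = 3 each). The lowest ratios were those of Skiv2l-deleted 2 and control 3, and the difference between the means was smaller than either SD. This ratio is taken within a library and does not depend on how the library was scaled.

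**Figure D1:**
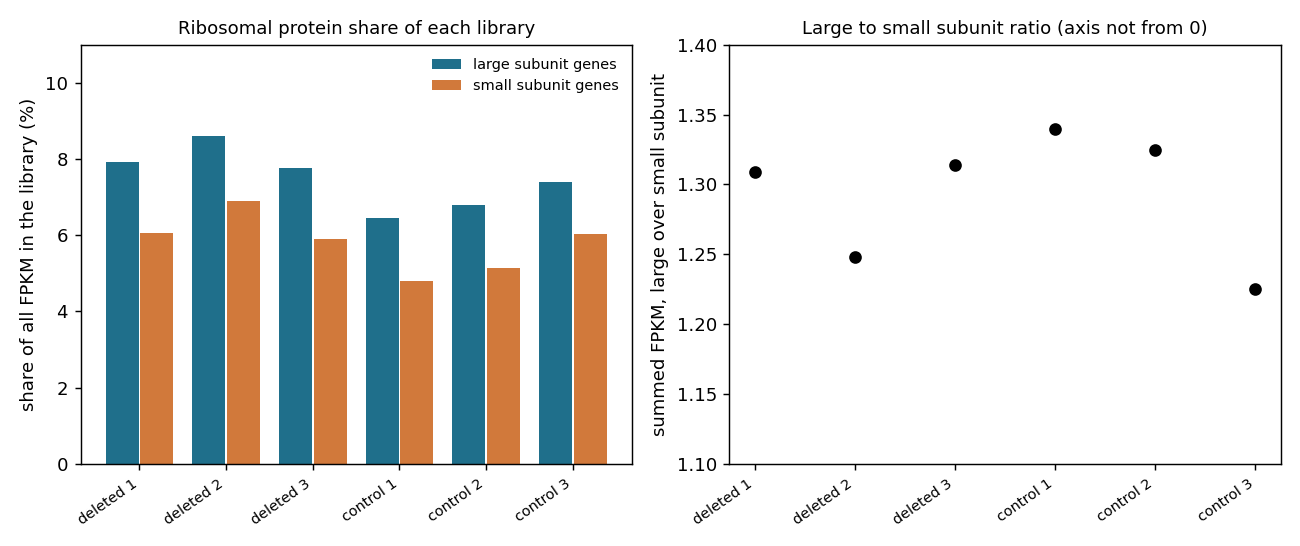
The left plot shows the share of all FPKM (%) taken by large and small subunit genes in each of the 6 libraries, Skiv2l-deleted first, as bars from 0, and the right plot shows the ratio of large to small subunit summed FPKM as points on an axis that does not start at 0. Large subunit shares of 7.76% to 8.61% in Skiv2l-deleted libraries lie above the 6.45% to 7.39% of control libraries, while the ratio lies between 1.23 and 1.34 in all libraries, lowest in Skiv2l-deleted 2 and control 3.

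Gene by gene, the difference was small and nearly always in the same direction. On the scale of log2(FPKM + 1), Skiv2l-deleted minus control, 76 of the 77 members lay above 0, against 57.8% of the 13539 genes tested. The median log2 fold change was 0.24 over all members, 0.24 over the large subunit and 0.24 over the small subunit, against 0.06 over all genes tested. Over the 74 members reported singly here the values ran from −0.02 to 0.47, and 52 of all 77 lay within 0.1 of the members' median. The 95% intervals reached 0.236 to 1.24 either side of the estimate, with a median of 0.35, which is wider than the median change itself. Few members passed the test singly: 3 of 77 had a limma adjusted p below 0.05, all higher in Skiv2l-deleted cells, which is 3.9% of the members against 8.84% of all genes called in either direction and 4.97% called higher. Among them were Rpl15 of the large subunit and Rps23 of the small subunit. At an unadjusted p below 0.05 there were 16 members (20.8%), all higher in Skiv2l-deleted cells, against 25.6% of all genes in either direction and 15.7% higher. Leaving out Skiv2l-deleted 2 lowered the small subunit median to 0.14, and leaving out control 3 raised it to 0.37, while the large subunit median was 0.17 and 0.34 in those fits.

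Groups that did not overlap were more frequent among members than among all genes. In 30 of 77 members (39.0%) each Skiv2l-deleted library lay above each control library, against 19.9% of all genes tested. These were 22 of 46 large subunit genes (47.8%) and 8 of 31 small subunit genes (25.8%); the difference between subunits was not tested. With TPM, the deposited measure scaled to a common library sum, the count was 41 of 77, against 19.4% of all genes. All members of a library share its scaling, so these counts do not stand for independent observations. In a fit on TPM 4 members were called, Rpl12, Rps23 and Rpl36 among them (5.19%, against 7.93% of all genes in either direction and 4.34% higher). With each library shifted to a common median ratio, 0 members were called, against 8.98% of all genes called in either direction and 4.31% called higher. In that fit 10 members (13.0%) had an unadjusted p below 0.05, all of them higher, against 24.5% of all genes in either direction and 12.5% higher. In that fit 75 members lay above 0, against 50.8% of all genes, with a median of 0.19 for members and 0.01 for all genes.

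**Figure D2:**
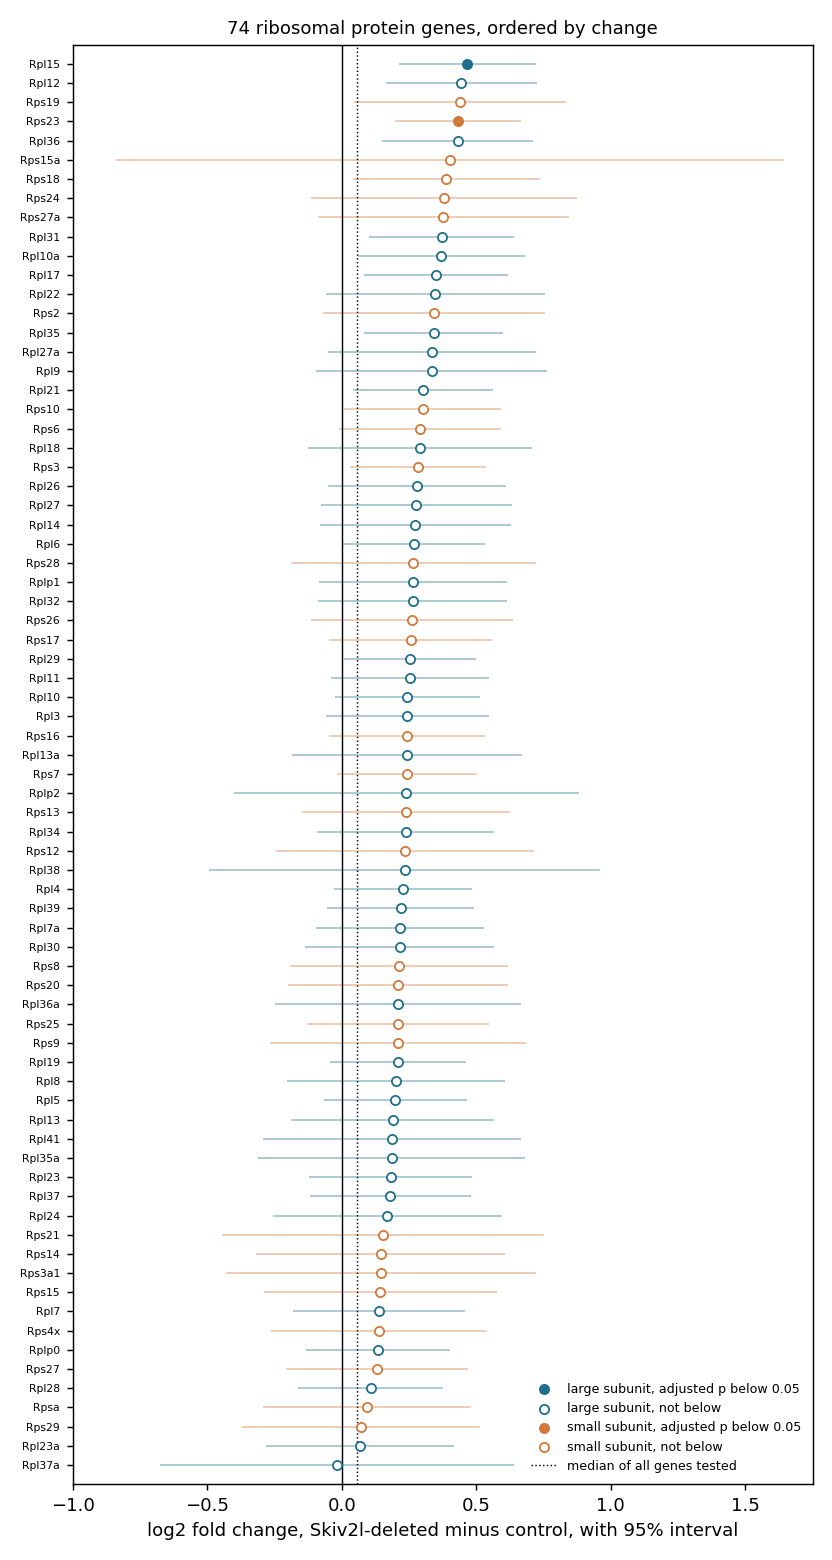
Log2 fold change of each of 74 of the genes (horizontal axis, Skiv2l-deleted minus control, points with 95% intervals), ordered from the highest at the top, with filled points for an adjusted p below 0.05. All points but that of Rpl37a at −0.02 lie right of 0, most of them within a narrow band around 0.24, and the widest interval is that of Rps15a.

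Rps23, which lies next to the decoding centre of the small subunit (chromosome 13, 90922958 to 90924950), was at 573, 622 and 561 FPKM in Skiv2l-deleted libraries and at 422, 435 and 442 FPKM in control libraries. The spread within each group was small and the gap between them wide. The log2 fold change was 0.43 ± 0.10 (SE, limma adjusted p = 0.0433). Leaving out any library but control 3 gave adjusted p values between 0.114 and 0.168, and the call was kept without both control 3 and Skiv2l-deleted 2 (0.04). Named processed pseudogenes of Rps23 held 61.8% as much FPKM as the gene, so reads may be split between near-identical copies. With them summed to it, the adjusted p was 0.0725.

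Rpl15, a large subunit protein needed for processing of the large subunit RNA (chromosome 14, 18267823 to 18271391), was among the lowest members in level. It was at 317, 328 and 314 FPKM in Skiv2l-deleted libraries and at 240, 247 and 207 FPKM in control libraries. The Skiv2l-deleted libraries were nearly equal, and control 3 was the lowest of all. The log2 fold change was 0.47 ± 0.11 (SE, limma adjusted p = 0.0435). Leaving out any library but control 3 gave adjusted p values between 0.0803 and 0.168, and the call was kept without both control 3 and Skiv2l-deleted 2 (0.0446). Its named pseudogenes summed to 97.5% of its own FPKM, the adjusted p with them included being 0.0503, and Nkiras1 overlaps it on the opposite strand.

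Rpl12, Rpl36 and Rps19 came close in size but did not pass. Rpl12, at the base of the stalk that recruits translation factors, was at 1026, 1114 and 991 FPKM in Skiv2l-deleted libraries and at 721, 733 and 849 FPKM in control libraries, without overlap (log2 fold change 0.44 ± 0.12, limma adjusted p = 0.0652). Rpl36, a large subunit protein, was at 655, 763 and 661 FPKM in Skiv2l-deleted libraries and at 478, 506 and 557 FPKM in control libraries, also without overlap (0.43 ± 0.12, limma adjusted p = 0.0697). Rps19, the gene most often mutated in human Diamond-Blackfan anaemia, was at 1165, 1354 and 1144 FPKM in Skiv2l-deleted libraries and at 770, 840 and 1114 FPKM in control libraries, where control 3 reached nearly the level of Skiv2l-deleted 3 (0.44 ± 0.17, limma adjusted p = 0.157).

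**Figure D3:**
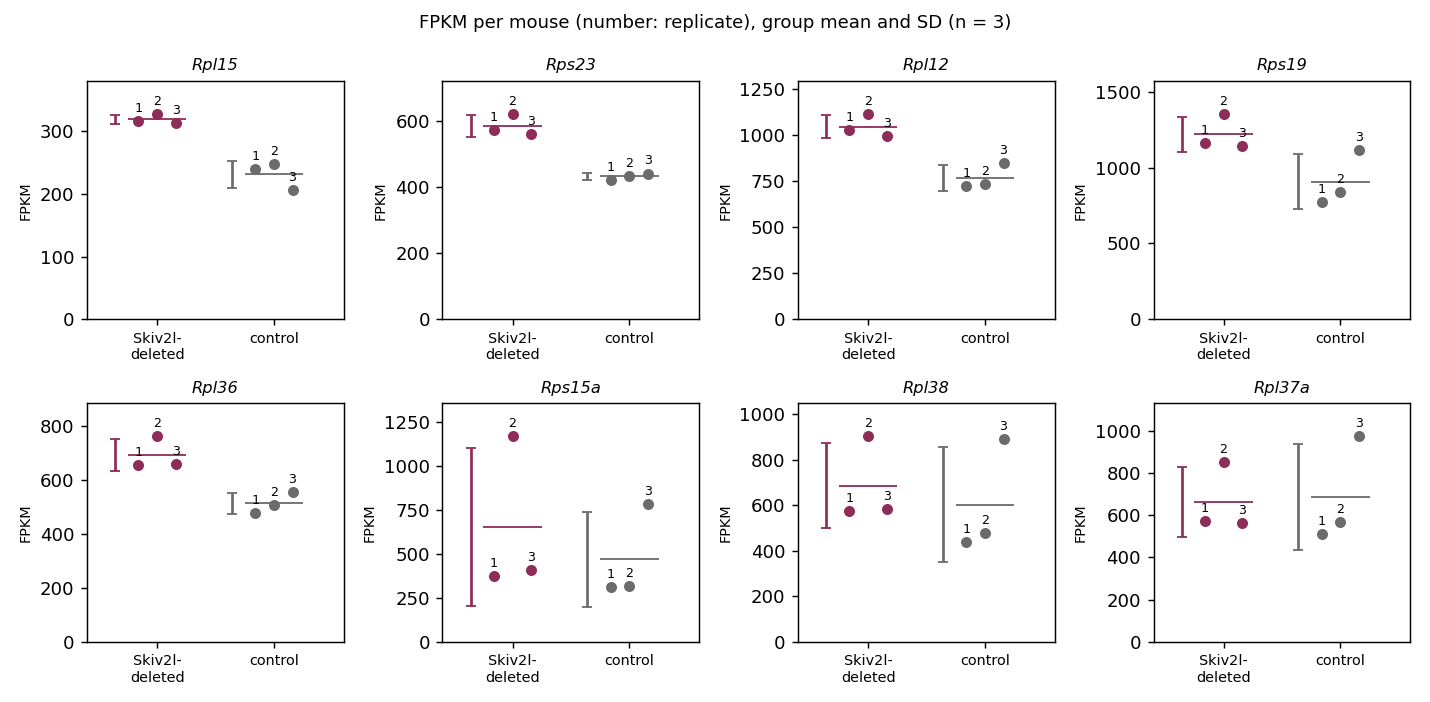
FPKM in each mouse (vertical axes from 0; points numbered by replicate, horizontal line the mean, bar the SD, n = 3) for Rpl15, Rps23, Rpl12, Rps19, Rpl36, Rps15a, Rpl38 and Rpl37a, Skiv2l-deleted left of control. In Rpl15, Rps23, Rpl12, Rps19 and Rpl36 all Skiv2l-deleted points lie above all control points, while in Rps15a, Rpl38 and Rpl37a the spread follows Skiv2l-deleted 2 and control 3.

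Without control 3 and Skiv2l-deleted 2, each Skiv2l-deleted library lay above each control library in 72 of 77 members (93.5%), against 36.7% of all genes. The exceptions included Rps14, Rpl7, Rps27 and Rpl37a. These 2 libraries stood apart in the same data, and control 3 was the highest control library in 70 of 77 members. Leaving it out therefore favours separation of the members, which also share the libraries that remain. In the fit without those 2 libraries 7 members were called (9.09%, against 13% of all genes in either direction and 7.3% higher). They were Rps24 (log2 fold change 0.50, limma adjusted p = 0.0257), Rps19 (0.52, 0.0301), Rpl12 (0.47, 0.031), Rpl36 (0.42, 0.0393), Rps23 (0.40, 0.04), Rpl15 (0.37, 0.0446) and Rpl27a (0.41, 0.0474). The median over members was 0.27, against 0.05 over all genes. With all 6 libraries and a covariate that marked those 2, an alternative chosen after seeing the data, 21 members were called (27.3%, against 19.4% of all genes). Between the pair that stood apart, Skiv2l-deleted 2 lay above control 3 in 69 of 77 members, against 58.2% of all genes. The median fold over members was 1.14 for Skiv2l-deleted 2 over control 3 and 1.20 for the mean of Skiv2l-deleted 1 and 3 over the mean of control 1 and 2, while over all genes these were 1.06 and 1.04. The 8 members that lay lower in Skiv2l-deleted 2 than in control 3 included Rps20, Rpl8, Rps3a1, Rps4x, Rpsa, Rps29 and Rpl37a, and 6 of the 8 belong to the small subunit.

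**Figure D4:**
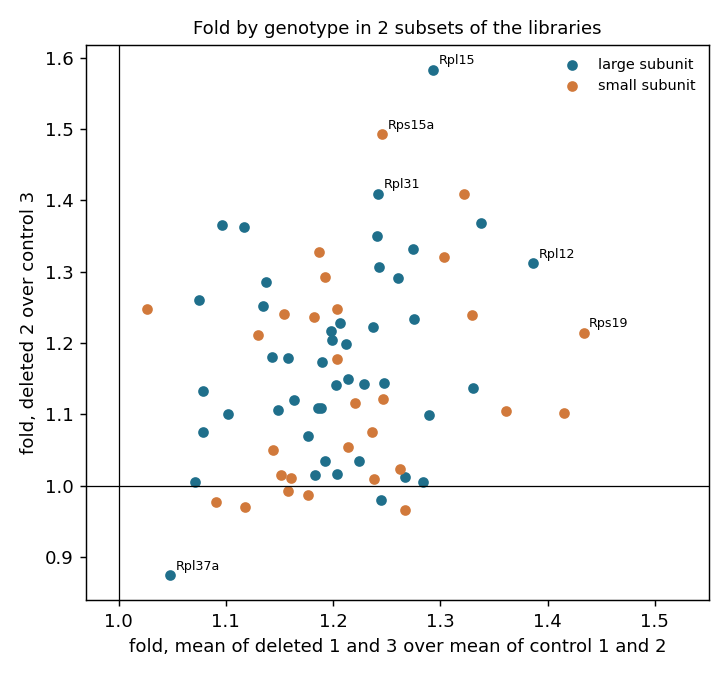
Each point is 1 of 74 of the genes, with the fold of mean FPKM in Skiv2l-deleted 1 and 3 over control 1 and 2 on the horizontal axis and the fold of Skiv2l-deleted 2 over control 3 on the vertical axis. All points lie right of a fold of 1, and 67 of them lie above a fold of 1 on the vertical axis, with Rpl15 the highest and Rpl37a at the lower left.

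The pyrimidine tract described above was looked for at the starts of the genes. Windows of 20 bases either side of the annotated start were read from RefSeq promoters (GRCm38.p6), which held 57 of the 77 members. The windows shown are those of the genes with calls in either fit for which a promoter was held, and of Rps15a and Rpl37a, which are described further on. They run 5′ to 3′ on the gene's strand, and capitals mark the longest run that begins with C, continues for at least 4 pyrimidines and begins within 10 bases of the start. The genes lie at chr14:18270967-18271006 (minus strand, Rpl15), chr13:90923102-90923141 (plus, Rps23), chr2:32961692-32961731 (plus, Rpl12), chr7:24884572-24884611 (plus, Rps19), chr14:24490658-24490697 (plus, Rps24), chr7:109519175-109519214 (plus, Rpl27a), chr7:118116128-118116167 (minus, Rps15a) and chr1:72711240-72711279 (plus, Rpl37a).
Rpl15: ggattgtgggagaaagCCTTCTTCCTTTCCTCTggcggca
Rps23: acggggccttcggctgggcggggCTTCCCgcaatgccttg
Rpl12: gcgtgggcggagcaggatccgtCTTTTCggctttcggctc
Rps19: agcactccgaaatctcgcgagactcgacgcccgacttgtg
Rps24: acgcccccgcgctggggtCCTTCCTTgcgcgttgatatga
Rpl27a: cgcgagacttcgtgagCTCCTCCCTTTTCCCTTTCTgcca
Rps15a: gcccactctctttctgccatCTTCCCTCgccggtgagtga
Rpl37a: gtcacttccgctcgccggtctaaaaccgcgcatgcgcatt
The runs were 17 bases in Rpl15, 6 in Rps23, 6 in Rpl12, 8 in Rps24, 20 in Rpl27a and 8 in Rps15a. The window of Rpl37a held none, nor did that of Rps19, for which the table gave 3 starts and the first was read. Over the 57 members 33 (57.9%) had such a run at any listed start, against 32.6% of 27025 genes. Their median log2 fold change was 0.27, and that of the 24 members without one was 0.20; this is a description without a test, and annotated starts can be off by several bases. In the window from 250 bases before to 50 after the start, on either strand, CCGGAAG, a core of ETS family sites, was found in 42.1% of members and 9.93% of genes, and AAGATGG, a core of YY1 sites, in 15.8% and 7.28%. TATAAA was found in 10.5% of members and 15.7% of genes, and CCAAT in 31.6% and 41.1%. Members with CCGGAAG had a median log2 fold change of 0.25, and the 33 without it 0.24.

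By role, which was assigned after the values were seen and is therefore given without a test, the large subunit was even. The 4 genes of the stalk and its base, which recruits elongation factors, had a median log2 fold change of 0.25. Rplp1, the most abundant member of all, was at 1987, 2400 and 1959 FPKM in Skiv2l-deleted libraries and at 1577, 1715 and 1993 FPKM in control libraries. Its control 3 value lay above Skiv2l-deleted 1 and 3 (log2 fold change 0.26 ± 0.15, limma adjusted p = 0.325). Rplp0, the stalk's anchor, was at 1381, 1472 and 1308 FPKM in Skiv2l-deleted libraries and at 1188, 1304 and 1299 FPKM in control libraries (0.13 ± 0.11, limma adjusted p = 0.522). Those groups did not overlap, though Skiv2l-deleted 3 and control 2 were nearly equal.

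Rpl5 and Rpl11 form the 5S ribonucleoprotein, which also binds Mdm2 when assembly of ribosomes fails. Rpl5 was at 546, 602 and 542 FPKM in Skiv2l-deleted libraries and at 460, 475 and 538 FPKM in control libraries. Rpl11 was at 799, 903 and 795 FPKM in Skiv2l-deleted libraries and at 650, 663 and 786 FPKM in control libraries. In both genes the groups were separate by a narrow gap to control 3, with log2 fold changes of 0.20 ± 0.11 and 0.25 ± 0.12 and limma adjusted p values of 0.326 and 0.262. Around the peptidyl transferase centre, the catalytic site, Rpl3, Rpl8 and Rpl10 had log2 fold changes of 0.24, 0.20 and 0.24. Rpl10, one of the last proteins to join the large subunit, was at 615, 729 and 622 FPKM in Skiv2l-deleted libraries and at 556, 531 and 567 FPKM in control libraries. Its groups did not overlap, but its pseudogenes held 87.0% as much FPKM as the gene (limma adjusted p = 0.235).

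The 8 genes of the exit tunnel had log2 fold changes from 0.07 to 0.37, with a median of 0.25, and in 6 of the 8 the groups did not overlap, against 39.0% of all members and 19.9% of all genes. Rpl31, at the tunnel's opening, was at 989, 1054 and 1110 FPKM in Skiv2l-deleted libraries and at 829, 861 and 748 FPKM in control libraries. Control 3 was here the lowest library (log2 fold change 0.37 ± 0.11, limma adjusted p = 0.0928). Rpl39, a very short protein in the tunnel wall, was at 623, 722 and 648 FPKM in Skiv2l-deleted libraries and at 528, 570 and 613 FPKM in control libraries (0.22 ± 0.12, limma adjusted p = 0.292). Rpl23a, the docking site for factors at the opening, was at 1306, 1531 and 1270 FPKM in Skiv2l-deleted libraries and at 1187, 1217 and 1522 FPKM in control libraries, where control 3 nearly equalled Skiv2l-deleted 2 (0.07 ± 0.15, limma adjusted p = 0.828).

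Of the other large subunit genes, Rpl22, whose loss in mice disturbs lymphocyte development, was at 407, 501 and 389 FPKM in Skiv2l-deleted libraries and at 270, 370 and 383 FPKM in control libraries. Control 1 lay well below the rest (log2 fold change 0.35 ± 0.17, limma adjusted p = 0.265). Its paralogue Rpl22l1, which can take its place, was at 141, 162 and 114 FPKM in Skiv2l-deleted libraries and at 119, 139 and 164 FPKM in control libraries, with full overlap (−0.02 ± 0.17, limma adjusted p = 0.968). Rpl41, the shortest ribosomal protein, was at 1232, 1596 and 1237 FPKM in Skiv2l-deleted libraries and at 977, 1092 and 1544 FPKM in control libraries (0.19 ± 0.20, limma adjusted p = 0.627). Rpl13a, next to Rplp1 among the most abundant, had a log2 fold change of 0.24, and the least abundant with Rpl15 were Rpl29 (0.25) and Rpl37 (0.18). Rpl28 had a log2 fold change of 0.11 with overlapping groups.

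In the small subunit the genes of the messenger RNA entry, Rps2, Rps3 and Rps9, had log2 fold changes of 0.34, 0.28 and 0.21. Of the 7 genes of the head and beak, with a median log2 fold change of 0.24, Rps19 has been described above. Rps12, the second most abundant member, was at 1848, 2242 and 1782 FPKM in Skiv2l-deleted libraries and at 1389, 1487 and 2191 FPKM in control libraries (log2 fold change 0.24 ± 0.20, limma adjusted p = 0.529). Rps15, next in level within the small subunit, had a log2 fold change of 0.14.

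The 4 genes at the messenger RNA exit had a median log2 fold change of 0.20. Groups did not overlap in 0 of the 4, against 25.8% of small subunit genes and 19.9% of all genes. A set of 4 genes is too small to tell such a count from those shares. Rps14, which is lost with 1 copy of the chromosome arm in the human 5q- syndrome, was at 905, 1248 and 1107 FPKM in Skiv2l-deleted libraries and at 922, 812 and 1234 FPKM in control libraries (0.15 ± 0.20, limma adjusted p = 0.706). Rpsa, also known as a laminin receptor, was at 839, 952 and 794 FPKM in Skiv2l-deleted libraries and at 674, 787 and 980 FPKM in control libraries, and its pseudogenes held 86.7% as much FPKM as the gene (0.10 ± 0.16, limma adjusted p = 0.778). In both genes the highest control library was close to or above the highest Skiv2l-deleted library. Rps27a, made as a fusion with ubiquitin, was at 908, 1181 and 855 FPKM in Skiv2l-deleted libraries and at 637, 689 and 953 FPKM in control libraries (0.38 ± 0.20, limma adjusted p = 0.291). Rps29 and Rps27 had log2 fold changes of 0.07 and 0.13, and the least abundant members of the subunit were Rps20 (0.21), Rps23, described above, and Rps25 (0.21). A selection of 9 mouse counterparts of human Diamond-Blackfan anaemia genes, of both subunits, had log2 fold changes from 0.19 to 0.44. Their median was 0.26. By limma 0 of the 9 were called, and 2 had an unadjusted p below 0.05. Over all genes these shares were 8.84% and 25.6% in either direction. The selection was made after the values were seen and is not a full list of such genes. Rpl15, which was called (log2 fold change 0.47), is not among the 9, and the range and counts depend on that choice.

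The order of members by level barely differed between genotypes. Over the 6 libraries mean levels spanned 8.89-fold from Rps20 to Rplp1, with 25 members above 1000 FPKM, 44 between 500 and 1000 FPKM and 8 below 500 FPKM. Spearman's rho between mean levels in Skiv2l-deleted and control cells was 0.984 across 77 members, which share libraries and transcript lengths. The large subunit median was 781 FPKM in Skiv2l-deleted and 687 FPKM in control cells, and the small subunit median was 1014 FPKM in Skiv2l-deleted and 830 FPKM in control cells. The coefficient of variation across members within a library was 41.7% to 43.3% in Skiv2l-deleted libraries and 43.1% to 46.2% in control libraries.

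Much of the spread within a genotype followed the libraries that stood apart. Skiv2l-deleted 2 was the highest Skiv2l-deleted library in 74 of 77 members, and control 3 was the highest control library in 70. The median fold over members was 1.19 for Skiv2l-deleted 2 over the mean of Skiv2l-deleted 1 and 3, and 1.21 for control 3 over the mean of control 1 and 2. For the small subunit these folds were 1.23 and 1.38, and for the large subunit 1.17 and 1.18, a difference that was not tested. Short transcripts of other coding genes went the same way: over 662 genes with transcripts under 1000 bases the medians were 1.17 and 1.37, and over 2776 genes of 4000 bases or more they were 0.895 and 0.828. None of these folds was corrected for the larger FPKM sums of control 3 and Skiv2l-deleted 2, given above. Of the members 54 have transcripts under 1000 bases, with a median of 827 bases. Of the myeloid markers Mpo, Elane, Prtn3 and Ctsg were high in the same libraries, as given above. The part of library sums, transcript length or myeloid messages in these folds was not tested.

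Rps15a, a small subunit protein that contacts ribosomal RNA, was the extreme. It was at 377, 1171 and 407 FPKM in Skiv2l-deleted libraries and at 309, 320 and 784 FPKM in control libraries. Skiv2l-deleted 2 and control 3 were thus 2.99-fold and 2.49-fold above the mean of the other libraries of their genotype, and the log2 fold change between genotypes was 0.40 ± 0.52 (SE, limma adjusted p = 0.695). It was −0.12 without Skiv2l-deleted 2 and 0.84 without control 3. Rpl38, which in mice is needed for translation of Hox messages, was at 573, 902 and 583 FPKM in Skiv2l-deleted libraries and at 436, 476 and 892 FPKM in control libraries, folds of 1.56 and 1.95 within the genotypes. Rpl37a, the one member with a log2 fold change below 0, was at 570, 852 and 562 FPKM in Skiv2l-deleted libraries and at 512, 569 and 974 FPKM in control libraries. Without control 3 and Skiv2l-deleted 2 its log2 fold change was 0.07, so its sign rested on those libraries. Rpl15, Rpl31, Rpl29 and Rpl4 lay at the other end, with control 3 below the mean of control 1 and 2 at folds of 0.849, 0.885, 0.895 and 0.923.

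**Figure D5:**
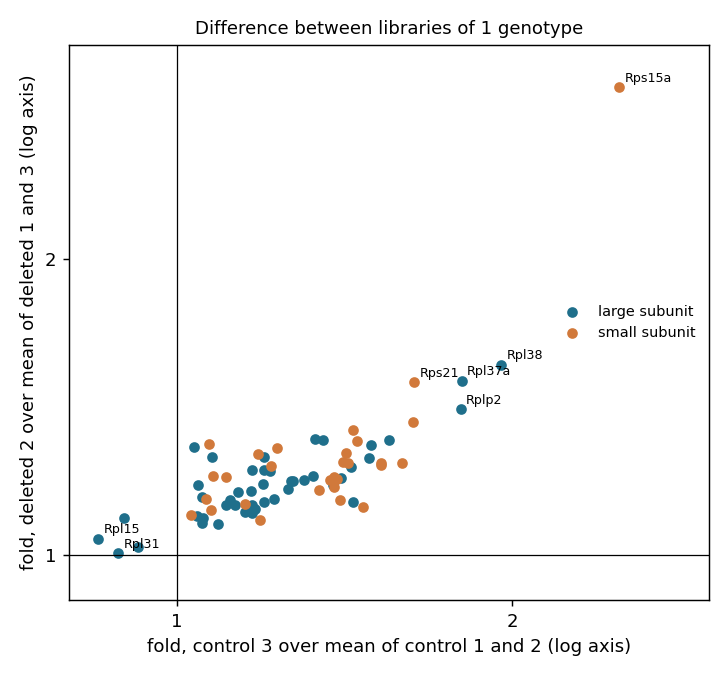
Each point is 1 of 74 of the genes, with the fold of control 3 over the mean of control 1 and 2 on the horizontal axis and the fold of Skiv2l-deleted 2 over the mean of Skiv2l-deleted 1 and 3 on the vertical axis, both on log scales. Most points lie above 1 on both axes and near each other, Rps15a lies far out at 2.49 and 2.99, and Rpl15 and Rpl31 lie at the lower left.

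To see whether any member moved against the others, FPKM were scaled so that the members' summed FPKM was the same in every library. Then 0 of 77 members had a limma adjusted p below 0.05, against 5.92% of all genes, and 1 had an unadjusted p below 0.05, against 22.6% of all genes. The median over members was 0.0025 with 40 above 0, as the scaling fixes. The scaling also removes the differences between libraries that members share, and puts their inverse into all other genes. Low counts of members are thus in part built in, and the shares of all genes are no like background for them. Without control 3 and Skiv2l-deleted 2, 0 of 77 were called, against 16.3% of all genes, and 6 had an unadjusted p below 0.05, against 36.1% of all genes. A member that misses the threshold is not shown to keep step with the others.

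The members lie on 19 chromosomes, with 14 of them on chromosome 7 and 4 on the X chromosome (median log2 fold change of those 4, 0.22). In all, 30 members hold 58 small nucleolar RNAs within their span, and their median log2 fold change was 0.24, against 0.25 for the 47 members that hold none. The annotation places another gene over 25 members, for 21 of them on the opposite strand. Spearman's rho of the log2 fold change was 0.144 with transcript length and −0.232 with mean level, across 77 members measured in the same libraries. The tables name 298 processed pseudogenes of ribosomal protein genes, 295 of them of members, and their FPKM came to 15.2% to 15.3% of the members' sum in Skiv2l-deleted libraries and to 14.7% to 15.4% in control libraries. In 38 members the pseudogenes held at least 10% as much FPKM as the gene, and the level of those members depends on how reads were shared out.

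Ribosomal proteins whose symbols fall outside the rule were mixed. Rack1, a scaffold on the small subunit head, was at 990, 1103 and 973 FPKM in Skiv2l-deleted libraries and at 796, 849 and 950 FPKM in control libraries, without overlap (log2 fold change 0.24 ± 0.12, limma adjusted p = 0.268). Fau, a fusion with a ubiquitin-like protein, was at 790, 1114 and 888 FPKM in Skiv2l-deleted libraries and at 887, 856 and 1145 FPKM in control libraries (−0.05 ± 0.18, limma adjusted p = 0.899). Rpl36al, an intronless relative of Rpl36a, had a log2 fold change of −0.02, its libraries running from 155 to 272 FPKM in Skiv2l-deleted cells and from 123 to 282 FPKM in control cells. Of 8 paralogues found 6 were tested by limma and 0 were called, with 0 at an unadjusted p below 0.05. Over all genes these shares were 8.84% and 25.6%. Rps27l had a log2 fold change of 0.20 and Rpl10l was listed at 0 in all libraries.

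Genes that make or regulate ribosomes were counted in the same fit. Of 68 genes for transcription of ribosomal RNA and assembly of the subunits, 60 (88.2%) had a log2 fold change above 0, against 57.8% of all genes, with a median of 0.25, against 0.06 over all genes. By limma 0 of the 68 were called, against 8.84% of all genes in either direction. An unadjusted p below 0.05 was reached by 20 (29.4%), all higher, against 25.6% of all genes in either direction and 15.7% higher. Their summed level was 3259 to 3758 FPKM in Skiv2l-deleted libraries and 2639 to 3107 FPKM in control libraries. Without control 3 and Skiv2l-deleted 2, 11 of the 68 (16.2%) were called, all higher, against 13% of all genes in either direction and 7.3% higher, and the median was 0.38, against 0.05 over all genes. Of 12 chaperones and importers of ribosomal proteins 0 were called by limma, against 8.84% of all genes. An unadjusted p below 0.05 was reached by 1, against 25.6% of all genes, and the median log2 fold change was 0.10.

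Among 23 tested regulators of ribosomal protein synthesis, 2 were called higher and 1 lower. Over all genes, 8.84% were called in either direction and 4.97% higher. As a list the regulators were not shifted in 1 direction: 14 of the 23 lay above 0, against 57.8% of all genes. Their median log2 fold change was 0.04, against 0.06 over all genes. Without control 3 and Skiv2l-deleted 2 it was −0.05, against 0.05 over all genes. Single regulators did differ: 10 of the 23 had an unadjusted limma p below 0.05, against 25.6% of all genes in either direction. In the fit without control 3 and Skiv2l-deleted 2, 6 regulators were called, against 13% of all genes in either direction. Eif4ebp1, the mTOR target that blocks the cap-binding protein, was at 31.3, 28.3 and 33.3 FPKM in Skiv2l-deleted libraries and at 13.3, 14.8 and 19.4 FPKM in control libraries. The groups were well separated (log2 fold change 0.94 ± 0.16, limma adjusted p = 0.0167), and the adjusted p reached 0.0604 without control 1, 0.0584 without control 2, 0.0796 without Skiv2l-deleted 1 and 0.0883 without Skiv2l-deleted 3. Trp53, which encodes p53, was at 145, 132 and 139 FPKM in Skiv2l-deleted libraries and at 97.9, 96.4 and 99.6 FPKM in control libraries, with narrow spread in both. Its log2 fold change was 0.50 ± 0.09 (limma adjusted p = 0.0227), with adjusted p values of 0.0524 to 0.121 when any library but control 3 was left out.

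Tial1, a protein that binds TOP messages under stress, was at 46.1, 46.7 and 44.1 FPKM in Skiv2l-deleted libraries and at 58.7, 67.6 and 59.6 FPKM in control libraries, without overlap. The log2 fold change was −0.43 ± 0.10 (limma adjusted p = 0.0457), with adjusted p values of 0.0993 to 0.2 when any library but control 3 was left out. Larp1, Mtor and Myc, named here after their values were seen because the background turns on them, were not called. Larp1, which binds the TOP tract, was at 50.3, 31.9 and 38.5 FPKM in Skiv2l-deleted libraries and at 26.2, 30.5 and 26.1 FPKM in control libraries (0.51 ± 0.17, limma adjusted p = 0.125). Myc, a transcription factor that drives ribosome production, was at 76.7, 57.3 and 56.2 FPKM in Skiv2l-deleted libraries and at 42.7, 36.3 and 53.7 FPKM in control libraries (0.51 ± 0.18, limma adjusted p = 0.137). Both were without overlap, while Mtor overlapped, with a log2 fold change of −0.21 (limma adjusted p = 0.563).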

How the data were processed

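The labels describe messenger RNA libraries, prepared with a strand-specific method, from pro-B cells of 6 mice, per the labels' protocols. Per the file headers, the authors deposited FPKM, TPM and coverage (mean read depth) for each gene of each mouse. Reads were placed on GRCm38 (per the submitters' processing notes), with an aligner and quantifier not given in the sources used here. Members, gene lists and tests were chosen with earlier results of these data known.

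FPKM of identifiers on several lines (7 to 9 per table) were summed. Genes with at least 1 FPKM in at least 3 libraries were tested with limma 3.58.1 (R 4.3.3; lmFit, eBayes with trend) on log2(FPKM + 1), a scale that understates low genes' changes, with genotype as the only term. P-values were adjusted by Benjamini-Hochberg over all 13539 genes and called below 0.05. The fit was tested on simulated data. The tables hold no counts, so no interval for counting error is given; aligned bases were derived from the ratio of the deposited FPKM to coverage. Sums, ratios and medians over members have no test. Named are, in each subunit, the 4 largest and 4 smallest changes, the 3 highest and 3 lowest levels, all calls, 10 members chosen by role and further genes named after their values were seen; paralogues are mostly given by count. Some of the genes this rule names are not reported here. Genes were placed with GENCODE M21 (GRCm38). Alternatives numbered 20, with 6 that leave out 1 library each and 4 chosen after seeing the data (3 of them on libraries that stood apart, 1 on mitochondrial copies).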

Additional observations from a re-analysis of the deposited data

How the results depend on the processing

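The medians of each subunit stayed above 0 under the 20 alternatives and their sums under the 14 run for sums, with moves below the spread between mice. For the medians that spread was an SD of 0.20 (large) and 0.21 (small subunit), nearly the size of the medians, so it is a loose bound. Leaving out 1 library gave medians of 0.14 to 0.37 for the small and 0.17 to 0.34 for the large subunit. The difference between the genotypes in the ratio of large to small subunit sums lay on either side of 0 under those 14 (−0.042 to 0.016). The number of calls varied more. The genes called over the whole table numbered 512 with no filter on low values, 2620 with a covariate marking control 3 and Skiv2l-deleted 2, and 1837 with median centring without those libraries; leaving out 1 library gave 179 to 1749. Large subunit calls numbered 0 with no filter, 2 with TPM, 0 with median centring, 2 without immunoglobulin and T cell receptor segments, 3 rescaled without ribosomal protein genes, 0 with pseudogenes summed to their gene, 4 without control 3 and Skiv2l-deleted 2, 11 with the covariate, 2 without receptor segments and mitochondrial copies, 4 with TPM on the 4 libraries and 0 with centring on them; leaving out 1 library gave 0 to 4. Small subunit calls numbered 0 with no filter, 0 with centring, 1 with pseudogenes summed, 10 with the covariate and 1 with centring on 4 libraries; leaving out 1 library gave 0 to 4. At an unadjusted p below 0.05 there were 10 members with median centring.

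The replicate numbers were not taken to pair the mice. Correlations of same-numbered deviations from the group mean were 0.094, −0.43 and −0.35. Those deviations sum to 0 within a group, and Skiv2l-deleted 2 and control 3, which stood apart, weigh on them (0.56 between those 2). The correlations therefore cannot exclude a pairing. With the replicate numbers as a block, genes called over the whole table numbered 365, with 0 of the large and 0 of the small subunit.

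Over 43 single genes and 860 values, 23 turned sign, all of genes not called in either fit. Rpl37a was 0.023 rescaled without ribosomal protein genes, 0.069 without control 3 and Skiv2l-deleted 2, 0.056 with TPM and 0.022 with centring on those 4 libraries. Rps27 was −0.0103 with centring on 4 libraries. Rescaled without ribosomal protein genes, Rpl36al was 0.022 and Rpl22l1 0.023. Leaving out 1 library gave −0.21 to 0.27 for Rpl37a, −0.12 to 0.84 for Rps15a, −0.014 to 0.18 for Rpl23a, −0.032 to 0.24 for Rpsa, −0.044 to 0.24 for Rps29, −0.19 to 0.0805 for Fau, −0.33 to 0.27 for Rpl36al and −0.13 to 0.12 for Rpl22l1. With 3 mice a group, changes of the members' median size were within the interval of most single genes.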
